A study of Mus musculus with 47 samples.

Results

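Precursors of type 1 classical dendritic cells (pre-cDC1) that lack the +32 kb enhancer of Irf8 were compared with wild-type precursors of type 2 cells (pre-cDC2), to see how far the deleted cells resemble the cDC2 branch. The comparison used 6 of the 47 mouse RNA-seq libraries of the study. The d+32 pre-cDC1 group held 3 libraries, taken by title, with the genotype Irf8 +32 kb enhancer-deficient. The WT pre-cDC2 group held 3 libraries of wild-type cells. Both groups were harvested from bone marrow kept in Flt3L culture, as were the other groups used to place them: WT pre-cDC1, mature WT cDC2, mature WT cDC1 and WT common DC progenitors (CDP), with 3 libraries each. The genotype label does not state the zygosity of d+32, and a separate group in the study is labelled as heterozygous for the same deletion. The labels do not say whether the 3 libraries of a group came from separate mice or cultures, so the p-values rest on a spread among libraries that may be technical. They also do not give the surface markers used to isolate each population.

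For 2 of the 3 pre-cDC2 libraries the labels conflict. Replicates 1 and 2 were deposited under file names that say pre-cDC2 and titles that say cDC1, and 2 further libraries carry the reverse conflict. File names were followed here, and replicate 3, whose title and file name are the same, was also compared alone. The libraries with cDC1 file names had 39.1 and 88.2 CPM (counts scaled to library size) of the cDC2 surface gene Sirpa and 3215 and 3757 CPM of Irf8, beside 135 and 3450 CPM in WT cDC1 replicate 3. The 3 pre-cDC2 libraries had 1164, 1692 and 603 CPM of Sirpa. The same 3 libraries also held cDC1 transcripts. Their Xcr1 level was 22.7, 29.7 and 42.7 CPM, against 43.7, 39.1 and 38.1 CPM in WT pre-cDC1. The third value is that of replicate 3, so cDC1 transcripts were present in a pre-cDC2 library without a label conflict. In the d+32 libraries labelled pre-cDC1, Xcr1 was at 1.04, 1.27 and 0.598 CPM, so the defining cDC1 surface gene was nearly absent from them.

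IRF8 is a transcription factor that directs dendritic cell progenitors toward the cDC1 fate, and the +32 kb enhancer is the element through which BATF3 maintains Irf8 expression as cDC1 mature. The cDC1 take up dead cells through CLEC9A, respond to the chemokine XCL1 through XCR1 and cross-present antigen to CD8+ T cells. The cDC2 branch carries SIRPA and CD11b, uses IRF4 and presents mainly to CD4+ T cells. Both arise through committed pre-cDC stages from the CDP.

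The 6 libraries held between 24891148 and 33804137 counts. In edgeR's quasi-likelihood test, 555 of 12193 genes were called at an adjusted p under 0.05, or 4.55% of those tested. Of these, 241 (1.98%) were higher and 314 (2.58%) were lower in d+32 pre-cDC1 than in WT pre-cDC2. Scaling by library size alone gave 328 higher and 256 lower, that is 56.2% higher in place of 43.4%, with a median log2 fold change over all genes of 0.06. Against pre-cDC2 replicate 3 alone, 351 genes (2.7% of those tested) were called, 186 higher (1.43%) and 165 lower (1.27%), and 221 of them were among the 555. The number fell most with any of 5 libraries left out: to 341 without pre-cDC2 replicate 2, 271 without pre-cDC2 replicate 3, and 305, 306 and 296 without d+32 replicates 1, 2 and 3. In bulk libraries, fewer cells of a type and less RNA per cell cannot be told apart. In the same fit, d+32 pre-cDC1 against WT pre-cDC1 gave 1379 called genes (11.3%, 818 higher and 561 lower), and d+32 pre-cDC1 against WT cDC2 gave 1420 (11.6%, 810 higher and 610 lower). These comparisons share the d+32 libraries. WT pre-cDC1 against WT pre-cDC2 gave 336 (2.76%), of which 35 (0.287%) were higher and 301 (2.47%) lower in WT pre-cDC1. The count against WT pre-cDC1 came to 899 without d+32 replicate 1 and to 872 and 821 without WT pre-cDC1 replicates 1 and 2, and that against WT cDC2 to 629 and 793 without d+32 replicates 1 and 2 and to 845 and 866 without WT cDC2 replicates 2 and 3.

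Irf8, the gene the deleted enhancer belongs to (chr8:120736358-120756694, GRCm38.p6), came to 528, 464 and 466 CPM in d+32 pre-cDC1, against 2330, 1849 and 2742 CPM in WT pre-cDC2. The groups did not overlap, and every d+32 library was also below the WT cDC2 libraries, which had 793, 656 and 800 CPM. The mean in d+32 pre-cDC1 was 21.1% of that in WT pre-cDC2 and 14.3% of that in WT pre-cDC1, where Irf8 was at 3254, 3381 and 3551 CPM. The log2 fold change against WT pre-cDC2 was -2.24 (SE 0.15, adjusted p = 1.8e-05), and against pre-cDC2 replicate 3 alone it was -2.51 (adjusted p = 5.6e-05). Against WT cDC2 it was -0.62 (SE 0.15, adjusted p = 0.018). The deletion lies outside the counted mRNA, so these values describe the level of the transcript and do not show the deletion itself.

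Most of the genes listed for cDC1 identity were called lower in the deleted cells. Of 24 tested, 16 fell against WT pre-cDC2, 0 rose and 8 were not called, with a median log2 fold change of -1.59 beside -0.0029 over all genes tested. An unadjusted p under 0.05 marked 0 as higher and 22 as lower, and DESeq2 called 0 higher and 19 lower. Over all 12193 genes tested, the unadjusted p marked 1124 as higher and 1231 as lower, and DESeq2 called 546 higher and 721 lower. List counts against WT pre-cDC2 at these thresholds below are to be read beside those numbers. Against pre-cDC2 replicate 3 alone, 18 of 24 were lower and 0 higher, where 1.27% of all genes were lower. Against WT pre-cDC1, 21 of 24 were lower (all genes, 4.6%). WT pre-cDC1 against WT pre-cDC2 gave 1 of the 24 higher and 0 lower (all genes, 0.287% and 2.47%), with a median of 0.32. At an unadjusted p under 0.05, 10 were higher and 1 lower there, and DESeq2 called 3 higher and 0 lower. The WT pre-cDC2 libraries thus held most of these transcripts at levels not called different from WT pre-cDC1. The list is that of a lineage known to need Irf8, and its members were chosen with earlier results of these data known.

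Xcr1, the XCL1 receptor, was about 1 CPM in each deleted library as given above, and its log2 fold change against WT pre-cDC2 was -5.01 (SE 0.48, adjusted p = 0.00024). Clec9a, the receptor for dead cell actin, had 20.7, 14.6 and 13.6 CPM in d+32 pre-cDC1, against 147, 120 and 219 CPM in WT pre-cDC2 (log2 fold change -3.31, SE 0.44, adjusted p = 0.0020). Each WT pre-cDC2 library was above every deleted library, as in the plot of cDC1 and cDC2 genes by library. Naaa, which encodes a lysosomal amidase, had 124, 145 and 155 CPM in d+32 pre-cDC1, against 501, 539 and 944 CPM in WT pre-cDC2 (log2 fold change -2.22, SE 0.24, adjusted p = 0.00039). Replicate 3 was the highest of the pre-cDC2 libraries for all 3 genes. Cadm1, a cell adhesion molecule, had 23.5, 25.5 and 17.3 CPM in d+32 pre-cDC1, against 169, 188 and 327 CPM in WT pre-cDC2 (log2 fold change -3.36, adjusted p = 0.0021). Tlr3, the receptor for double-stranded RNA, had 7.27, 25.4 and 15.6 CPM in d+32 pre-cDC1, against 136, 112 and 280 CPM in WT pre-cDC2 (log2 fold change -3.45, adjusted p = 0.0067). Gcsam, Cd36 and Rab7b also fell, with log2 fold changes of -3.17, -2.86 and -1.15. Itgae, which encodes CD103, was listed at 0, 0 and 1.64 CPM in the deleted libraries and at 21.8, 14.6 and 39.0 CPM in WT pre-cDC2. Its call (adjusted p = 0.042) was lost when any one of 5 of the 6 libraries was left out and against replicate 3 alone (adjusted p = 0.088).

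**Figure D1:**
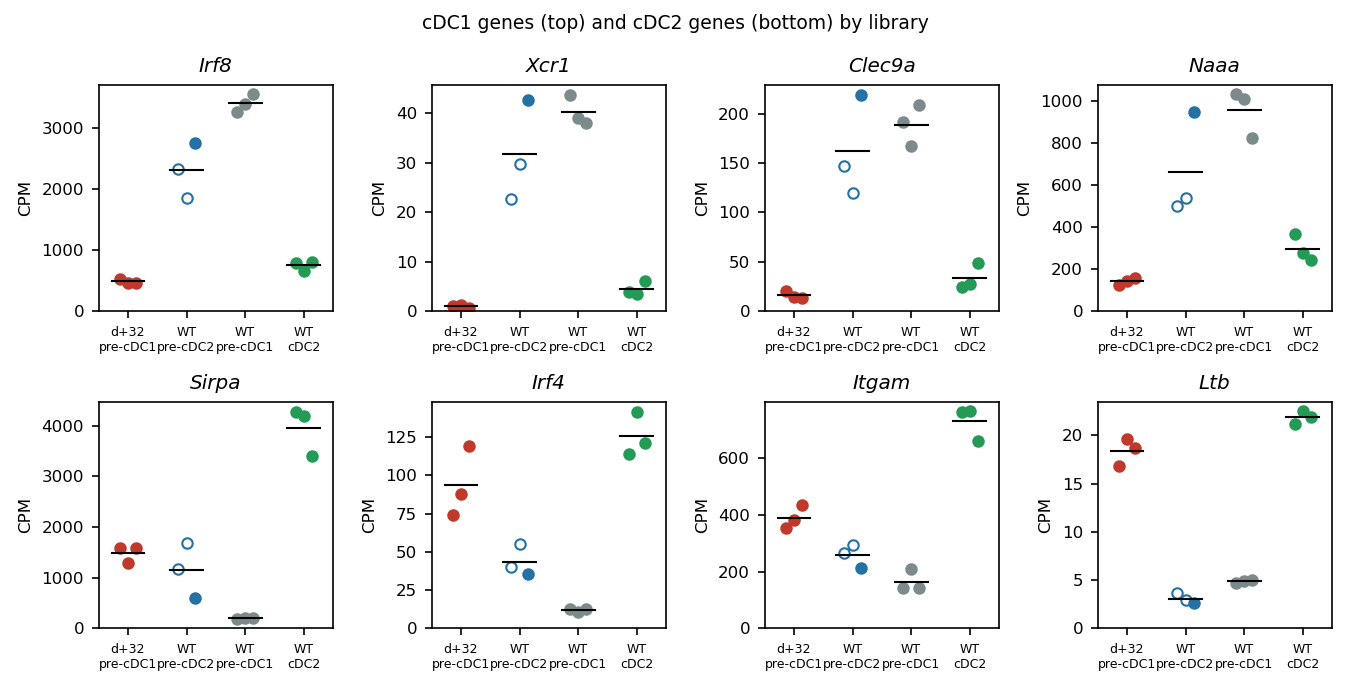
CPM of 4 cDC1 genes (top row) and 4 cDC2 genes (bottom row) in each library of d+32 pre-cDC1, WT pre-cDC2, WT pre-cDC1 and WT cDC2; points are libraries, lines are group means of 3, and open points are the 2 pre-cDC2 libraries whose title and file name conflict. Irf8 lies between 464 and 528 CPM in the deleted libraries and at 1849 CPM or more in WT pre-cDC2, while Sirpa overlaps between those groups.

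Smaller falls were seen for genes of cross-presentation and of the cDC1 programme. Wdfy4, needed for cross-presentation of cell-associated antigen, averaged 103 ± 18.7 CPM in d+32 pre-cDC1 and 167 ± 19.4 CPM in WT pre-cDC2 (SD, n = 3 each; log2 fold change -0.69, adjusted p = 0.0091). Nfil3, a transcription factor upstream of cDC1 commitment, averaged 7.69 ± 0.81 CPM in d+32 pre-cDC1 and 15.7 ± 0.89 CPM in WT pre-cDC2 (log2 fold change -1.03, adjusted p = 0.0086), and this call was not kept against replicate 3 alone (adjusted p = 0.058). Ppt1, Cd24a, Ifi205 and Plpp1 were called with log2 fold changes of -0.76, -0.48, -0.58 and -2.03. The calls of Ifi205 and Plpp1 were each lost without any one library other than pre-cDC2 replicate 1, and that of Cd24a without d+32 replicate 1 or pre-cDC2 replicate 3. The call of Ifi205 was also lost with library size scaling and with no filter on low counts (adjusted p = 0.059 and 0.060). Batf3, the partner of IRF8 at the enhancer, averaged 11.7 ± 1.89 CPM in d+32 pre-cDC1 and 11.1 ± 0.72 CPM in WT pre-cDC2 (log2 fold change 0.07, SE 0.21, adjusted p = 0.90), and Id2, an inhibitor of E proteins, averaged 55.0 CPM in d+32 pre-cDC1 and 52.7 CPM in WT pre-cDC2 (adjusted p = 0.76). A miss of the threshold does not show that these levels are equal.

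Most cDC2 identity genes were not called against WT pre-cDC2. Of 22 tested, 2 rose, 0 fell and 20 were not called, where 1.98% of all genes rose and 2.58% fell. The median log2 fold change was 0.32, and against pre-cDC2 replicate 3 alone it was 0.77. The summed list ran from 4516 to 5442 CPM in d+32 pre-cDC1 and from 2361 to 4674 CPM in WT pre-cDC2. It ran from 9659 to 10430 CPM in WT cDC2 and from 1233 to 1500 CPM in WT pre-cDC1. At an unadjusted p under 0.05, 8 of the 22 were higher and 2 lower (all 12193 genes, 1124 and 1231). DESeq2 called 5 higher and 1 lower (all genes, 546 and 721). Against WT pre-cDC1, 17 of the 22 rose and 0 fell, with a median of 1.60 (all genes, 6.71% higher). At an unadjusted p under 0.05, 1 of them was lower there, and DESeq2 also called 1 lower (all 12193 genes, 1330 and 940 lower). Against mature WT cDC2, 1 was higher and 9 were lower, with a median of -0.86 (all genes, 5% lower). Esam and Dtx1 were too low to test.

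Sirpa, the CD47 receptor that marks cDC2, had 1584, 1284 and 1592 CPM in d+32 pre-cDC1, against 1164, 1692 and 603 CPM in WT pre-cDC2 (log2 fold change 0.37, SE 0.28, adjusted p = 0.53). The groups overlapped, and pre-cDC2 replicate 3 was the lowest of the 6. Against replicate 3 alone Sirpa was called higher, at a log2 fold change of 1.29 (adjusted p = 0.018). Irf4, the transcription factor of the cDC2 branch, had 74.1, 87.8 and 119 CPM in d+32 pre-cDC1, against 40.3, 54.8 and 35.2 CPM in WT pre-cDC2 (log2 fold change 1.11, SE 0.36, adjusted p = 0.11). These groups did not overlap, which was so in the same direction for 11.3% of all genes. Irf4 was at 114, 142 and 121 CPM in WT cDC2 and between 10.4 and 12.8 CPM in WT pre-cDC1. Itgam, which encodes CD11b, averaged 390 ± 40.7 CPM in d+32 pre-cDC1 and 257 ± 40.9 CPM in WT pre-cDC2 (log2 fold change 0.60, adjusted p = 0.085).

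Ltb and Cd300a were the 2 members called. Ltb, which encodes lymphotoxin beta, had 16.8, 19.7 and 18.7 CPM in d+32 pre-cDC1, against 3.69, 2.91 and 2.63 CPM in WT pre-cDC2 (log2 fold change 2.58, SE 0.16, adjusted p = 1.6e-05). The deleted libraries were near the WT cDC2 libraries (21.2, 22.5 and 21.9 CPM), and the difference between them did not pass the test (log2 fold change -0.24, adjusted p = 0.32). Cd300a, an inhibitory receptor, had 1155, 1112 and 1142 CPM in d+32 pre-cDC1, against 703, 783 and 511 CPM in WT pre-cDC2 (log2 fold change 0.77, adjusted p = 0.0092). Its level in WT cDC2 was 833, 830 and 785 CPM, below the deleted cells (log2 fold change 0.48, adjusted p = 0.039). The lectins Clec10a and Mgl2, which mark mature cDC2, did not pass the test against WT pre-cDC2. Clec10a averaged 117 ± 42.8 CPM in d+32 pre-cDC1 and 123 ± 27.9 CPM in WT pre-cDC2 (adjusted p = 0.94), and Mgl2 averaged 11.7 ± 4.29 CPM in d+32 pre-cDC1 and 29.6 ± 12.8 CPM in WT pre-cDC2 (adjusted p = 0.083). Clec10a was at 473 CPM and Mgl2 at 75.4 CPM on average in mature WT cDC2. Zeb2, a repressor used in cDC2 and pDC development, had 303, 164 and 240 CPM in d+32 pre-cDC1, against 302, 338 and 134 CPM in WT pre-cDC2, and the groups overlapped.

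A wider set of lineage genes was chosen from 6 libraries assigned by file name to mature cells, 2 of which carry titles that say pre-cDC2. Between mature WT cDC1 and WT cDC2, 210 genes (1.83% of 11482) were higher in cDC1 by at least 2-fold and 580 (5.05%) were higher in cDC2, a number that came to 327 without WT cDC2 replicate 2. Of the cDC1-side genes, 207 were tested in the precursors. Against WT pre-cDC2, 74 of them fell (35.8%) and 0 rose, with a median log2 fold change of -1.10. An unadjusted p under 0.05 marked 0 as higher and 137 as lower, and DESeq2 called 0 higher and 107 lower. The mean of d+32 pre-cDC1 was below those of both WT pre-cDC2 and WT pre-cDC1 for 195 of the 207 genes (94.2%), which was so for 35.4% of all genes tested. WT pre-cDC1 against WT pre-cDC2 gave 6 of the 207 higher and 0 lower (all genes, 0.287% and 2.47%), with a median of 0.34. At an unadjusted p under 0.05, 45 were higher and 3 lower there, and DESeq2 called 18 higher and 1 lower. With the cDC1 libraries of conflicting labels left out of the choice, 77 cDC1-side genes remained in all and 46 of them fell.

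Of the 580 cDC2-side genes, 57 rose (9.83%) and 21 fell (3.62%) against WT pre-cDC2, with a median of 0.20, where 1.98% of all genes rose and 2.58% fell. The other 502 were not called. The 3.62% that fell is little above the 2.58% over all genes. With WT cDC2 replicate 1, 2 or 3 left out of the choice, 11 of 438, 8 of 324 and 12 of 439 fell. With WT cDC1 replicate 1, 2 or 3 left out, 18 of 456, 17 of 494 and 22 of 600 fell. Against WT pre-cDC1, 264 of the 580 rose and 1 fell (all genes, 6.71% and 4.6%), with a median of 1.29. WT pre-cDC1 against WT pre-cDC2 gave 1 higher and 149 lower of the same 580 (all genes, 0.287% and 2.47%). The genes below were picked, after their values were seen, from the 8 with the smallest adjusted p in each set and direction. They were not taken in order of adjusted p. Limd2, a cDC2-side gene that rose, averaged 1215 ± 54.6 CPM in d+32 pre-cDC1 and 619 ± 73.3 CPM in WT pre-cDC2. Ptger3, a prostaglandin E2 receptor, averaged 175 ± 29.0 CPM in d+32 pre-cDC1 and 51.2 ± 4.33 CPM in WT pre-cDC2. The integrin gene Itga4 rose likewise, to 72.0 ± 3.14 CPM in d+32 pre-cDC1, against 29.9 ± 3.55 CPM in WT pre-cDC2. Of the cDC2-side genes that fell, Thbs1, which encodes thrombospondin 1, averaged 3.91 ± 3.94 CPM in d+32 pre-cDC1 and 370 ± 204 CPM in WT pre-cDC2. Axl, a receptor tyrosine kinase, averaged 30.2 ± 1.03 CPM in d+32 pre-cDC1 and 152 ± 73.8 CPM in WT pre-cDC2. On the cDC1 side, Dapk2, a kinase, averaged 1.04 ± 0.19 CPM in d+32 pre-cDC1 and 27 ± 6.41 CPM in WT pre-cDC2.

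**Figure D2:**
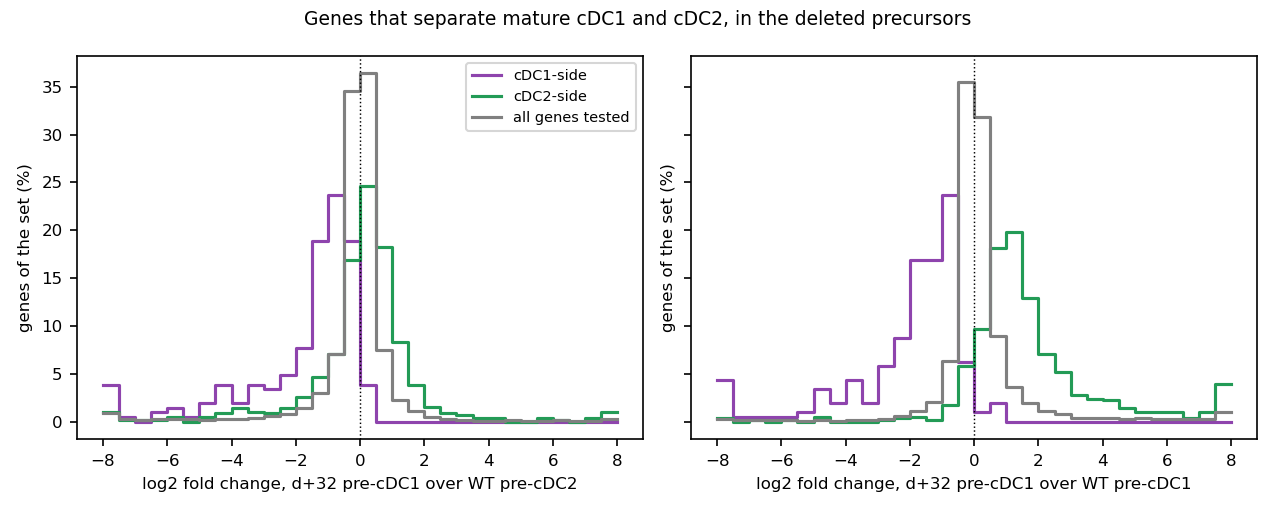
Share of genes (vertical axis, percent of each set) by log2 fold change (horizontal axis, bins of 0.5) for cDC1-side genes, cDC2-side genes and all genes tested, in d+32 pre-cDC1 over WT pre-cDC2 (left) and over WT pre-cDC1 (right); the outermost bins also hold larger changes. The cDC1-side curve lies below 0 in both panels (median -1.10 on the left), and the cDC2-side curve lies near 0 on the left (median 0.20) and above it on the right (median 1.29).

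Over all genes tested, the mean distance from the deleted cells was smallest to WT pre-cDC2, followed by WT cDC2 and WT pre-cDC1. The root mean square difference in log2(CPM + 2) averaged 0.629 ± 0.041 between d+32 pre-cDC1 and WT pre-cDC2 libraries (SD over 9 pairs), 0.645 ± 0.035 to WT cDC2, 0.662 ± 0.039 to WT pre-cDC1, 0.749 ± 0.020 to WT CDP and 0.769 ± 0.028 to WT cDC1. The first 3 means differ by less than the SD of their pairs. That SD does not show that they are equal, since the pairs share libraries and each distance includes the spread among replicates. With replicate 3 as the only pre-cDC2 library, the distance to WT pre-cDC2 was 0.654, above that to WT cDC2. Within d+32 pre-cDC1 the distance averaged 0.464, and within WT pre-cDC2 it averaged 0.489. WT pre-cDC1 and WT pre-cDC2 were 0.622 apart. The pre-cDC2 libraries were not alike in this. Replicates 1 and 2 were nearer to d+32 pre-cDC1 (0.575 and 0.656) than to WT pre-cDC1 (0.610 and 0.710), whereas replicate 3 was 0.654 from d+32 pre-cDC1 and 0.546 from WT pre-cDC1. Over the 500 genes of largest variance the order changed, and d+32 pre-cDC1 was nearest to WT cDC2 (1.65 ± 0.083), then to WT pre-cDC2 (1.78 ± 0.14) and WT pre-cDC1 (1.95 ± 0.19). No test was made of these distances, since the pairs share libraries.

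**Figure D3:**
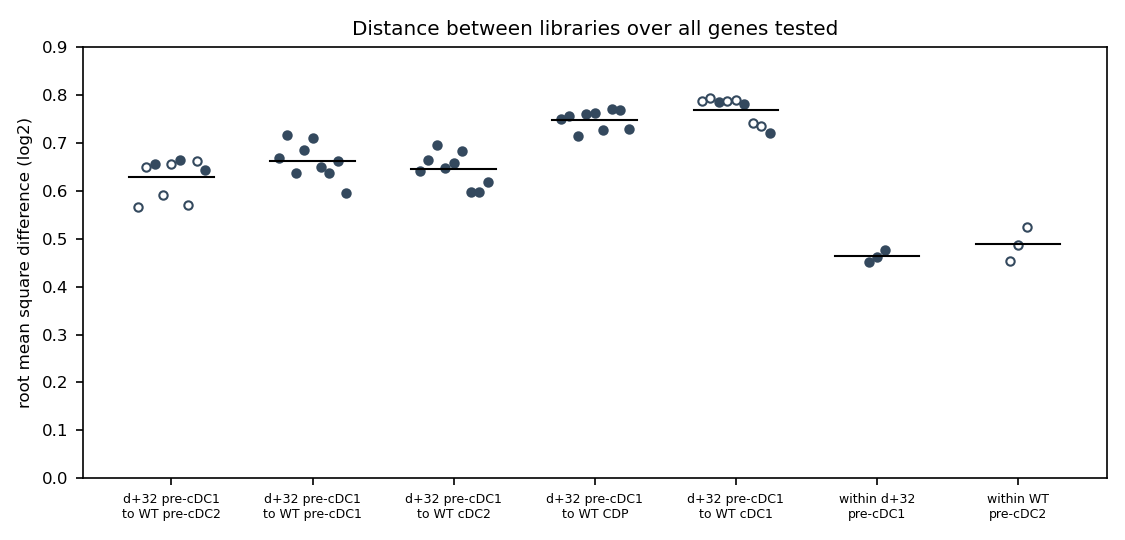
Root mean square difference in log2(CPM + 2) for each pair of libraries (points) and the mean of the pairs (lines); open points include a library whose title and file name conflict. The distances from d+32 pre-cDC1 to WT pre-cDC2 average 0.629, and those within d+32 pre-cDC1 average 0.464.

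Of 18 monocyte and macrophage genes, 9 fell in d+32 pre-cDC1 against WT pre-cDC2, 0 rose and 9 were not called (median -3.35). Of 14 neutrophil and granule genes tested, 4 fell, 0 rose and 10 were not called (median -4.69). Over all genes tested, 2.58% fell. At an unadjusted p under 0.05, 1 monocyte gene was higher and 12 lower, and 0 neutrophil genes were higher and 10 lower. DESeq2 called 1 monocyte gene higher and 10 lower, and 0 neutrophil genes higher and 7 lower. Against replicate 3 alone, the median log2 fold change was -2.38 over 18 monocyte genes and -3.61 over the 16 neutrophil genes tested in that fit. The neutrophil count was 2 without any one pre-cDC2 library and 1 without d+32 replicate 1 or 2. The summed neutrophil list ran from 13.9 to 18.6 CPM in the deleted libraries and from 129 to 414 CPM in WT pre-cDC2, against 50.9 to 80.1 CPM in WT cDC2 and 3.30 to 21.8 CPM in WT pre-cDC1. Ly6g and Fcnb had 0 counts in the deleted libraries. The summed monocyte list ran from 728 to 811 CPM in d+32 pre-cDC1 and from 1960 to 5127 CPM in WT pre-cDC2. It ran from 1292 to 1548 CPM in WT cDC2 and from 462 to 480 CPM in WT pre-cDC1. Against WT pre-cDC1, 5 of the 18 monocyte genes rose and 1 fell (all genes, 6.71% and 4.6%).

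Ly6c2, a monocyte surface gene, had 15.3, 25.4 and 23.5 CPM in d+32 pre-cDC1, against 241, 302 and 91.8 CPM in WT pre-cDC2 (log2 fold change -3.30, SE 0.47, adjusted p = 0.0027). Replicate 3 was the lowest pre-cDC2 library and still above every deleted one. Apoe, a lipid carrier of macrophages, had 75.7, 106 and 44.1 CPM in d+32 pre-cDC1, against 570, 1592 and 478 CPM in WT pre-cDC2 (log2 fold change -3.54, adjusted p = 0.0029). Cebpb, a myeloid transcription factor, had 23.1, 28.7 and 31.4 CPM in d+32 pre-cDC1, against 191, 454 and 90.0 CPM in WT pre-cDC2 (log2 fold change -3.14, adjusted p = 0.0029). S100a9, a neutrophil and monocyte calcium-binding protein, had 0.450, 0.637 and 0.439 CPM in d+32 pre-cDC1, against 24.3, 163 and 85.4 CPM in WT pre-cDC2 (log2 fold change -7.46, adjusted p = 0.011). Fcgr3, an activating Fc receptor, had 9.07, 13.6 and 6.74 CPM in d+32 pre-cDC1, against 74.9, 106 and 41.8 CPM in WT pre-cDC2, and 81.1, 73.3 and 64.2 CPM in WT cDC2. The deleted cells therefore lay below WT pre-cDC2 and WT cDC2 for Fcgr3 (adjusted p = 0.0010 and 0.00061). Their mean of 9.80 ± 3.49 CPM was near that of WT pre-cDC1, at 8.90 ± 2.74 CPM. Csf1r, the M-CSF receptor, was at 91.3, 90.8 and 93.6 CPM in d+32 pre-cDC1 and at 89.7, 110 and 59.6 CPM in WT pre-cDC2, and was not called. The part of monocyte and neutrophil transcripts in the falls of cDC2-side genes was not tested.

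**Figure D4:**
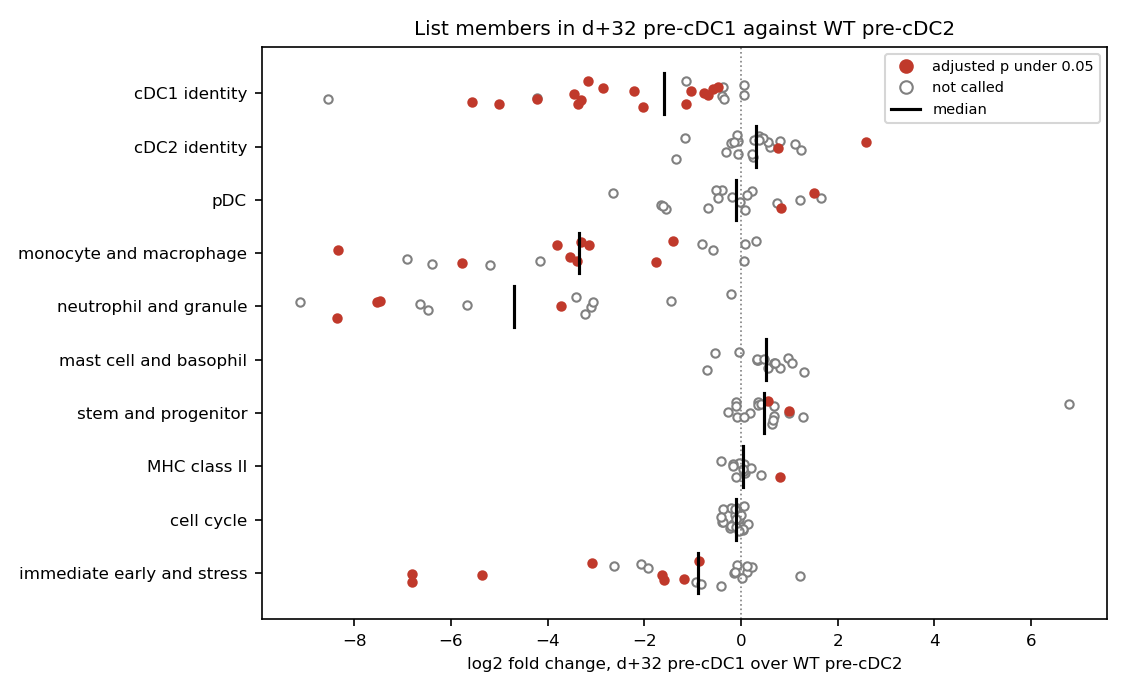
Log2 fold change of d+32 pre-cDC1 over WT pre-cDC2 (horizontal axis) for the tested members of 10 gene lists (rows); filled points passed an adjusted p of 0.05, open points did not, and bars are list medians. The cDC1 identity, monocyte and neutrophil lists lie to the left (medians -1.59, -3.35 and -4.69), and the cDC2 identity list lies near 0 (median 0.32).

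Mast cell and basophil transcripts were in both groups. The summed list ran from 218 to 679 CPM in d+32 pre-cDC1 and from 176 to 480 CPM in WT pre-cDC2, against 177 to 362 CPM in WT cDC2 and 4.68 to 21.5 CPM in WT pre-cDC1. None of 14 members was called between d+32 pre-cDC1 and WT pre-cDC2 (0 at an unadjusted p under 0.05 and 0 by DESeq2). Against WT pre-cDC1, 11 of 14 rose (all genes, 6.71%). Ms4a2, a chain of the high-affinity IgE receptor, had 122, 138 and 23.9 CPM in d+32 pre-cDC1, against 40.5, 87.3 and 16.6 CPM in WT pre-cDC2. Replicate 3 was lowest in both groups. The part of mast cell and basophil RNA in the other results was not tested. Among 18 pDC genes, Ly6a (Sca-1) rose to 229, 242 and 192 CPM in d+32 pre-cDC1, against 74.9, 105 and 53.6 CPM in WT pre-cDC2 (log2 fold change 1.51, adjusted p = 0.013), and Bcl11a rose by 0.82 (adjusted p = 0.036), a call lost without any one of 5 of the 6 libraries. These were the 2 pDC genes called, where 1.98% of all genes rose and 2.58% fell. Siglech, the defining pDC lectin, was not called (-0.39). Among 18 progenitor genes, Lmo2 (1.00, adjusted p = 0.013) and Bex6 (0.56, adjusted p = 0.015) rose and 0 fell, beside the same shares of all genes. An unadjusted p under 0.05 and DESeq2 each marked 0 progenitor genes as lower. The call of Bex6 was lost against pre-cDC2 replicate 3 alone (adjusted p = 0.071) and without d+32 replicate 2 or pre-cDC2 replicate 3. The progenitor receptors Flt3 and Kit were not called (-0.08 and 0.34).

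Among the largest rises, Ccr6, the CCL20 receptor, had 46.6, 46.5 and 63.4 CPM in d+32 pre-cDC1 and 0 counts in all 3 WT pre-cDC2 libraries, which is at least 1543-fold higher against a floor of 3 counts over that group (adjusted p = 2.5e-05). It was at 4.13, 6.81 and 5.67 CPM in WT pre-cDC1 and at 160, 110 and 80.0 CPM in WT cDC2. The deleted libraries thus lay between the WT pre-cDC1 and WT cDC2 libraries. Ffar2, a receptor for short-chain fatty acids, had 81.6, 73.5 and 98.8 CPM in d+32 pre-cDC1, against 9.05, 2.33 and 3.10 CPM in WT pre-cDC2 (log2 fold change 4.12, SE 0.49, adjusted p = 0.00076). Ccr7, which guides migration to lymph nodes, had 40.4, 17.9 and 29.4 CPM in d+32 pre-cDC1, against 10.7, 9.0 and 3.91 CPM in WT pre-cDC2 (log2 fold change 1.90, SE 0.36, adjusted p = 0.011). Ccr7 was at 108, 180 and 135 CPM in WT cDC2. Zfp40, Pald1, Trim32 and Tet1, which encodes a DNA methylcytosine dioxygenase, were called with log2 fold changes between 1.87 and 3.09, and the calls of Zfp40, Trim32 and Tet1 were each lost when any one of at least 4 of the 6 libraries was left out.

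**Figure D5:**
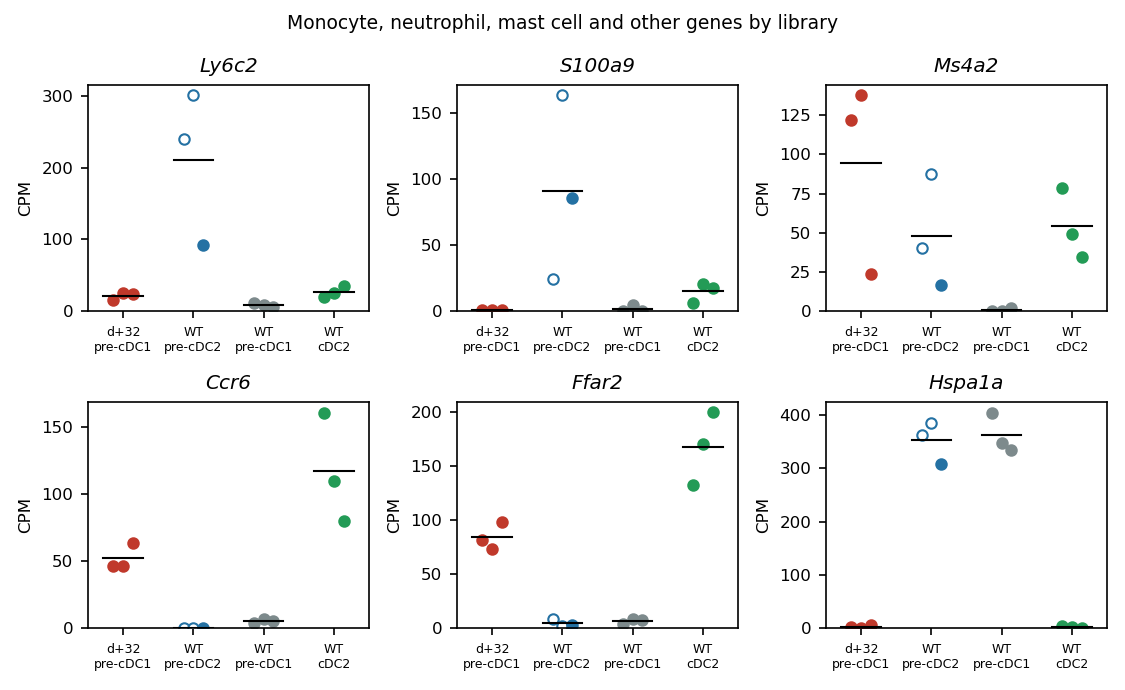
CPM of Ly6c2 (monocytes), S100a9 (neutrophils), Ms4a2 (mast cells and basophils), Ccr6, Ffar2 and Hspa1a in each library of d+32 pre-cDC1, WT pre-cDC2, WT pre-cDC1 and WT cDC2; points are libraries, lines are group means of 3, and open points are pre-cDC2 libraries with conflicting labels. Ccr6 is at 0 in WT pre-cDC2 and between 46.5 and 63.4 CPM in d+32 pre-cDC1.

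Tgtp1 and Tgtp2, near-identical interferon-inducible GTPase genes between which reads may be split, rose together. Tgtp1 had 27.6, 35.3 and 36.1 CPM in d+32 pre-cDC1, against 6.34, 8.01 and 6.48 CPM in WT pre-cDC2, a fitted fold of 4.76 (adjusted p = 0.00034). The deleted libraries did not overlap with WT pre-cDC2. The 250 bases before their starts, from RefSeq on GRCm38.p6, hold the interferon response half-site GAAA repeated after 2 bases, and overlapping it the ETS core GGAA followed after 2 bases by GAAA. Both were searched on either strand. Tlr11, a receptor for protozoan profilin that fell, holds the first. Other called genes with a match, not shown, include Ffar2, which rose, and Ifi205, Bcl6, Clec7a and Fcgr2b, which fell. The sequences below are shown because IRF8 is a member of the family that binds such motifs. Capitals mark matches. The sequences lie at chr11:48992247-48992496 (Tgtp1, minus strand), chr11:49064213-49064462 (Tgtp2, minus strand) and chr14:50357664-50357913 (Tlr11, plus strand).

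Tgtp1: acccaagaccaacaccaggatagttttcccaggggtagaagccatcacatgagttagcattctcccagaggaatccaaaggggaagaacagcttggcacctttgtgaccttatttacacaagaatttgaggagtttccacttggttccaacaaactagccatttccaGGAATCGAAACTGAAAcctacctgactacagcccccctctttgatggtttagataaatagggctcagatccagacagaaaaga

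Tgtp2: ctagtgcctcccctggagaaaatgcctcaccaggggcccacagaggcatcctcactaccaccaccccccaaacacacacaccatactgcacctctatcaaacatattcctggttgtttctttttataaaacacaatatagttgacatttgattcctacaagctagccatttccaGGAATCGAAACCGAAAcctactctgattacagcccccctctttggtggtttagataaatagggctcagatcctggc

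Tlr11: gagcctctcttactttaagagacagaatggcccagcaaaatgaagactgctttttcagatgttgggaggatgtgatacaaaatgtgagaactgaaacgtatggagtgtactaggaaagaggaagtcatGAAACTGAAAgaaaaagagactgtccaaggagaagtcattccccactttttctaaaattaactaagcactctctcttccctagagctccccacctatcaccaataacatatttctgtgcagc

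Promoters of 258 genes that fell, 192 genes that rose and 9889 genes tested were matched. The GAAA repeat was in 5.81% of those that fell, 9.38% of those that rose and 3.46% of all. The GGAA and GAAA composite was in 3.88% of those that fell, 3.65% of those that rose and 2.39% of all. A match describes letters in this window, and binding was not measured. Tlr11 was at 0, 0.390 and 2.31 CPM in d+32 pre-cDC1, against 12.8, 10.4 and 26.6 CPM in WT pre-cDC2 (log2 fold change -4.22, adjusted p = 0.026), and the call was lost without d+32 replicate 2 or pre-cDC2 replicate 3. Of 14 interferon-stimulated genes in a separate list, 0 were called against WT pre-cDC2 (2 higher and 0 lower at an unadjusted p under 0.05, 1 higher by DESeq2). Against WT pre-cDC1, 6 of the 14 rose (all genes, 6.71%).

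Among the largest falls, Gramd2 had 0 counts in the deleted libraries and 9.58, 14.9 and 31.5 CPM in WT pre-cDC2, at least 506-fold lower, and it was at 59.8, 57.1 and 31.2 CPM in WT pre-cDC1. Ly6a2 also had 0 counts in the deleted libraries and 27.2, 32.0 and 7.49 CPM in WT pre-cDC2, at least 607-fold lower, though its call was lost against replicate 3 alone (adjusted p = 0.13) and without any one library other than pre-cDC2 replicate 3. Mgst1, a microsomal glutathione transferase, had 0, 0 and 1.60 CPM in d+32 pre-cDC1, against 99.8, 117 and 38.1 CPM in WT pre-cDC2 (adjusted p = 0.0021). Ltf, Ngp, Chil3, Hp and Apoc2, genes of granulocytes and macrophages, were each at or under 1.13 CPM in every deleted library and between 11.2 and 104 CPM in the WT pre-cDC2 libraries. The call of Ltf was lost without d+32 replicate 1 or 2, and those of Chil3 and Ngp without any one of the 6 libraries. Against pre-cDC2 replicate 3 alone, none of the 5 was called (adjusted p between 0.068 for Ltf and 0.20 for Chil3).

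Of 22 immediate early and stress genes, 8 fell, 0 rose and 14 were not called against WT pre-cDC2, where 2.58% of all genes fell (1 higher at an unadjusted p under 0.05 and 1 by DESeq2). Against WT pre-cDC1, 6 of the 22 fell (all genes, 4.6%). The count of 8 came to 4 without d+32 replicate 1, pre-cDC2 replicate 2 or pre-cDC2 replicate 3. The median log2 fold change of the list against WT pre-cDC2 was -0.90, and against replicate 3 alone it was -0.92. Hspa1a, an inducible heat shock protein gene, had 1.56, 0.850 and 7.14 CPM in d+32 pre-cDC1, against 362, 386 and 309 CPM in WT pre-cDC2 (log2 fold change -6.81, SE 0.80, adjusted p = 0.00072). It was between 335 and 404 CPM in WT pre-cDC1 and between 1.27 and 3.97 CPM in WT cDC2. Hspa1b, a near-identical copy with which it shares reads, was at -6.80. Nr4a1, an immediate early receptor gene, had 13.1, 14.7 and 11.8 CPM in d+32 pre-cDC1, against 40.1, 37.9 and 42.3 CPM in WT pre-cDC2 (log2 fold change -1.60, adjusted p = 0.0083), and Phlda1 was at -3.07. The handling of cells before lysis is not given in the labels, and its part in these values was not tested.

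Most antigen presentation genes were not called against WT pre-cDC2, where 1.98% of all genes rose and 2.58% fell. Of 12 MHC class II genes, 1 rose and 0 fell (1 lower at an unadjusted p under 0.05, 0 lower by DESeq2). The member that rose was Ciita, the master regulator of class II transcription, with 1528, 1624 and 2125 CPM in d+32 pre-cDC1, against 1013, 922 and 1088 CPM in WT pre-cDC2 (log2 fold change 0.81, adjusted p = 0.0086), a call lost against replicate 3 alone (adjusted p = 0.14). Against mature WT cDC2, 5 of the 12 fell (all genes, 5%). Of 16 class I and cross-presentation genes, Tap1, a peptide transporter, fell to 242, 240 and 259 CPM in d+32 pre-cDC1, against 379, 330 and 463 CPM in WT pre-cDC2 (log2 fold change -0.66, adjusted p = 0.0065). Cd83, a maturation marker, had 138, 103 and 176 CPM in d+32 pre-cDC1, against 421, 451 and 861 CPM in WT pre-cDC2 (log2 fold change -2.05, adjusted p = 0.0036). Bcl6, a transcriptional repressor, fell by 0.78 on the log2 scale (adjusted p = 0.0067).

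No cell cycle gene was called between d+32 pre-cDC1 and WT pre-cDC2. Of the 22 tested, 0 were higher and 6 lower at an unadjusted p under 0.05, and DESeq2 called 1 lower. Their median was -0.11. For 9 of the 22 every d+32 library was below every WT pre-cDC2 library (all genes, 12.4%). WT pre-cDC1 against WT pre-cDC2 gave 4 of the 22 called lower (all genes, 2.47%). In d+32 pre-cDC1 against mature WT cDC2, 19 of the 22 rose, with a median of 0.55, where 6.64% of all genes rose. Cenpa, a centromere histone, differed there by 1.02 and Birc5, a mitotic inhibitor of apoptosis, by 0.55.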

How the data were processed

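Each library came from some 1500 to 10000 cells, with SMART-Seq HT for amplification and Nextera XT for library construction (per the labels' protocols). The authors deposited expected counts, per the file headers, for 21000 genes per library. Tools named in the submitters' processing notes are RSEM 1.3.3, STAR 2.7.7a and Picard 2.25.0, and the named builds are GRCm38 and mm10. The annotation and the treatment of duplicate reads are not given in the sources used here. The kits add no molecular identifiers and do not mark strand, so overlapping and antisense genes cannot be told apart.

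Expected counts were rounded and tested with edgeR 4.0.16 in R 4.3.3 (quasi-likelihood F test, TMM scaling, its default filter on low counts, Benjamini-Hochberg threshold 0.05) in 1 fit of 15 libraries: d+32 pre-cDC1, WT pre-cDC2, WT pre-cDC1, WT cDC2 and WT CDP, with the group as the only term. Every adjusted p is from this test unless DESeq2 (1.42.0) is named. Standard errors were derived from the log2 fold change and the F statistic. CPM are TMM-scaled over 27 untransduced cultured libraries. Lineage genes came from a separate edgeR fit of 6 mature libraries. The test was run on simulated counts with 200 changed genes, drawn with the same spread for every gene. That run does not show how the test performs on replicates as uneven as these. No pair of replicates agreed within sampling noise (lowest chi-square per degree of freedom 41.3). Totals per library for the 18 libraries used ran from 22549394 to 38343160.

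Single-transcript genes showed a ceiling in the deposited counts. Their 99th percentile was 0.965 counts per base, beside 7.08 for genes with 2 curated RefSeq transcripts. Fold changes of the 677 genes at 0.5 counts per base or more (among them H2-Aa, Lyz2, Id2, Ppt1, Cd24a, Ifi205, Flt3 and Hspa1b) may be compressed, and levels were not compared between genes.

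Named genes were Irf8, the called genes with the 10 largest rises and the 10 largest falls (no overlap of libraries, a mean of 10 CPM or more in 1 group, no Gm, Rik or -ps symbol), all cDC1 and cDC2 identity genes, up to 4 members of each other list by adjusted p, and a fixed set of cell type markers; others are said to be chosen by value. The members and lists were chosen with earlier results of these data known. Alternatives were DESeq2, DESeq2 size factors, library size scaling, no filter, replicate number as a block, deposition as a term or first-deposited libraries only, only the groups compared, all 27 libraries, pre-cDC2 as replicate 3 alone or by title, and each library left out. Where pre-cDC2 is replicate 3 alone, that library is assumed to vary like the other groups. Replicates 3 have accession numbers in a later range, which is what deposition means here. The comparison with WT cDC2 and the removal of genes near the ceiling were added after seeing the data.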

Additional observations from a re-analysis of the deposited data

How the results depend on the processing

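Irf8, Xcr1, Clec9a, Naaa, Gcsam, Ltb, Ccr6 and Ffar2 kept their direction and call in d+32 pre-cDC1 against WT pre-cDC2 under all 18 alternatives. The same held for Tgtp1 and Tgtp2, which rose, and for Fcgr3, Cd83 and Phlda1, which fell. Of 64 named genes called, 43 kept their call whichever library was left out, 64 under DESeq2 and 45 against pre-cDC2 replicate 3 alone. The cause of each change below was not tested, except that fits of fewer libraries have fewer residual degrees of freedom.

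The 555 genes called became 1267 with DESeq2, 104 with only first-deposited libraries, 157 with only the groups compared, 289 with all 27 libraries, 351 with replicate 3 alone, 1089 with pre-cDC2 by title, and 271 to 469 with 1 library left out. The 1379 genes called against WT pre-cDC1 became 2188, 919 and 871 with DESeq2, first-deposited libraries and all 27 libraries, and 821 to 1088 with 1 library left out. The 336 genes called in WT pre-cDC1 against WT pre-cDC2 became 985 with DESeq2, 76 with only the groups compared, 155 with all 27 libraries, 48 with replicate 3 alone, 2 by title, and 121 to 436 with 1 left out. The 1420 genes called against WT cDC2 became 2322, 639, 848, 770 and 848 with DESeq2, first-deposited libraries, only the groups compared, all 27 libraries and pre-cDC2 by title, and 629 to 1194 with 1 left out.

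The 16 cDC1 identity genes that fell became 7 with first-deposited libraries and 9 with only the groups compared. The 2 cDC2 identity genes that rose became 5 with DESeq2, 1 with only the groups compared, 5 with replicate 3 alone and 11 by title. The 9 monocyte genes became 5 with first-deposited libraries, 4 with all 27 libraries, 4 with replicate 3 alone and 2 by title. The 4 neutrophil genes became 7 with DESeq2, 2 with all 27 libraries, 1 with each of first-deposited libraries, replicate 3 alone and title, and 1 to 3 with 1 left out. The 8 immediate early genes became 4 with first-deposited libraries, 5 with replicate 3 alone, 4 by title, and 4 to 9 with 1 left out.

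The 210 cDC1-side genes became 77 with cDC1 replicate 3 alone and 443 with no fold threshold, and the 580 cDC2-side genes became 336 with cDC1 replicate 3 alone and 327 to 600 with 1 left out. The 74 cDC1-side genes that fell became 46 with cDC1 replicate 3 alone, and the 57 cDC2-side genes that rose became 86 with no fold threshold. With 500 genes of largest variance the distances from d+32 pre-cDC1 were 1.782 to WT pre-cDC2, 1.95 to WT pre-cDC1 and 1.65 to WT cDC2, and with a prior of 0.5 they were 0.8837, 0.9247 and 0.8989. With pre-cDC2 by title, 2 named genes changed direction: Trim32 was at -0.06568 and Clec7a, a beta-glucan receptor that was at -1.05, was at 0.7077.

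Replicate numbers did not pair the libraries: deviations of same-numbered libraries correlated at 0.044, 0.062 and 0.061. With the replicate number as a block, 452 genes were called and 55 of the 64 named genes kept their call. Pre-cDC2 replicate 3 is both the library without a label conflict and the one deposited later, so those 2 differences cannot be told apart.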
